A study of Sus scrofa with 6 samples.

Results

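The genes described here are 10 genes of the cAMP pathway that holds oocytes in meiotic arrest: GPR3, GPR12, GNAS, ADCY3, ADCY9, PDE3A, PRKACA, PRKACB, PRKAR1A and PRKAR2A. They were taken by symbol from a table of 29861 genes of porcine oocytes, and all 10 were found. Their levels were read in 3 groups of 2 samples each. Control oocytes were matured without heat, heat-stressed oocytes were kept at a raised temperature for the first 24 hours of maturation, and NMN-supplemented oocytes received nicotinamide mononucleotide, a precursor of NAD+, in the medium during the same heat. Every sample was a pool of oocytes from ovaries collected at a slaughterhouse. Nothing in the sources used here says that the samples of a group were separate cultures, so the P-values measure only the spread between these samples. The labels place all 6 samples at the GV stage, the arrested stage with an intact nucleus, whereas the methods describe oocytes that had reached metaphase II. Which of these holds could not be settled from the files. The NMN dose of the sequenced samples was not given in the sources used here.

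In the fully grown oocyte the constitutively active receptors GPR3 and GPR12 couple to the stimulatory G protein alpha subunit encoded by GNAS, which switches on adenylyl cyclases such as ADCY3 and ADCY9. The cAMP made in this way releases the catalytic subunits of protein kinase A (PKA; PRKACA and PRKACB) from their regulatory subunits (PRKAR1A and PRKAR2A). Active PKA keeps the cell-cycle kinase CDK1 off by favouring the inhibitory kinase WEE2 and restraining the phosphatase CDC25B. Arrest ends when cAMP is hydrolysed by PDE3A, the main cAMP phosphodiesterase of the oocyte.

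Levels are FPKM, by definition fragment numbers divided by the length of the transcript and by how many fragments were mapped in a sample. Any further scaling between samples in the deposited values was left as it was. FPKM are per length and can be set side by side between genes, as far as the annotated gene models are complete. No read counts were used here, so the depth behind a value is unknown and no counting interval is given. In such pools, fewer cells of a type and less RNA per cell cannot be told apart. Tests were made with limma on log2(FPKM + 1) over the 4713 genes with a mean of at least 1 FPKM, and 4 of the 10 genes were among them (ADCY3, PRKACA, PRKACB and PRKAR1A). A gene was called, and is said to have risen or fallen, at an unadjusted P under 0.05. The P printed beside it is the one adjusted over all tested genes, and where it is 0.05 or more the call does not hold after adjustment. The fold changes are those of log2(FPKM + 1), which are smaller than the ratios of FPKM for genes near 1 FPKM.

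The oocyte markers were present, with 14 of the 18 found in the table at a mean of at least 1 FPKM, among them GDF9 at 353 to 777 FPKM. Their FPKM summed to 3480 and 3741 in the controls, to 3407 and 3409 after heat alone, and to 3203 and 2941 where NMN was supplied. Of 20 cumulus and granulosa cell markers in the table, 3 reached that mean (GREM1, KITLG and GATA4), and AMH, AMHR2 and INHA were listed at 0 in every sample. FSHR, which defines granulosa cells, lay between 0.0647 and 0.109 FPKM. The summed FPKM of these markers was 7.46 to 8.66 in control, 9.45 to 9.88 in heat-stressed and 11.14 to 11.15 in NMN-supplemented samples. None of the 9 blood and theca cell markers found reached a mean of 1 FPKM, and their summed FPKM ranged from 0.470 to 1.31 over the 6 samples. Mitochondrially encoded genes took 61.7 to 66.4% of the summed FPKM in control, 62.4 and 71.6% in heat-stressed and 74.2 to 74.7% in NMN-supplemented oocytes. Heat-stressed sample 1 stood apart, since LOC100513953 took 13.9% of its summed FPKM and was listed at 0 in the other samples. GAPDH, used by every cell, was also listed at 0 in that sample and at 0.208 to 0.315 FPKM elsewhere, so a 0 is given below only as listed.

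PRKAR1A, the type I regulatory subunit, had the highest level of the 10 genes, with 7.26 to 11.7 FPKM in the 6 samples. PRKACB (0.8999 to 1.74 FPKM), PRKACA (0.863 to 1.51 FPKM) and ADCY3 (0.858 to 1.26 FPKM) came next, and their ranges overlapped. ADCY9 (0.314 to 0.525 FPKM) lay below all 3 of them. GNAS (0.230 to 0.440 FPKM) overlapped with ADCY9, GPR3 spread from 0 to 1.45 FPKM across all of these, and PDE3A (0.0881 to 0.153 FPKM) lay below GNAS. PRKAR2A, the type II regulatory subunit, did not exceed 0.00550 FPKM, and GPR12 was listed at 0 in every sample. Among all genes of the table, the mean level of PRKAR1A stood at percentile 96.8 and that of PDE3A at percentile 62.9.

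**Figure D1:**
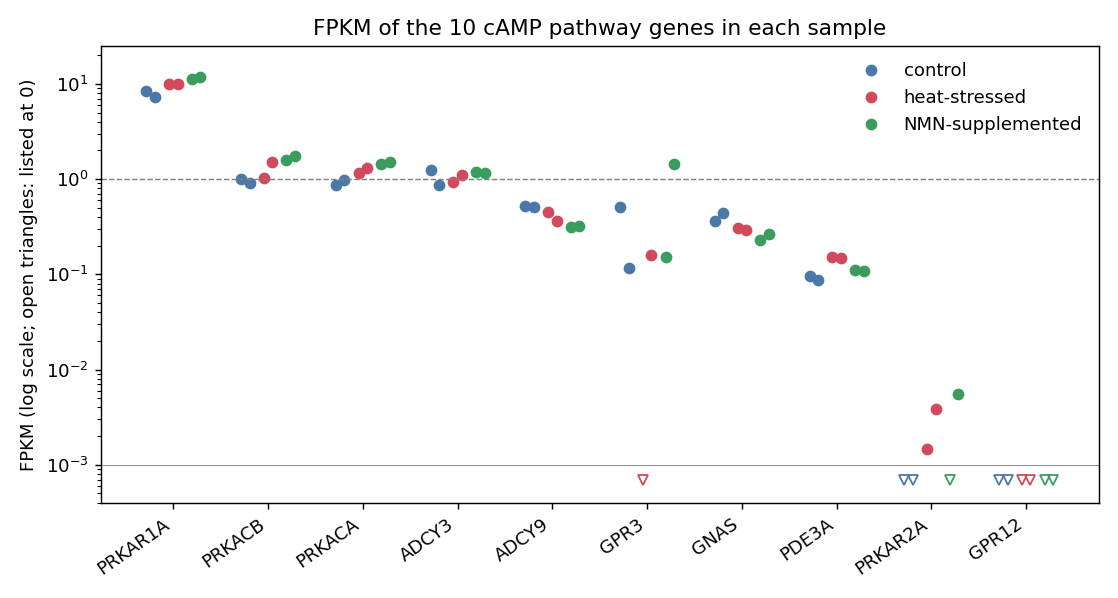
FPKM (log scale) of the 10 genes in each of the 6 samples, ordered by mean level, with 1 point per sample coloured by group, open triangles for values listed at 0 and a dashed line at 1 FPKM. PRKAR1A lies at 7.26 to 11.7 FPKM, the 2 catalytic subunits and ADCY3 lie around 1 FPKM, and GPR12 is listed at 0 throughout.

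PRKAR2A, PDE3A and GPR12, the 3 genes with the lowest mean levels, had short annotated untranslated regions in Sscrofa11.1, the genome build of the table. The annotated 3′ untranslated region was 29 bases in PRKAR2A, 134 bases in PDE3A and 143 bases in GPR12, against a median of 754 bases over 20641 protein-coding genes. The 5′ untranslated region was 1 base in PRKAR2A and 2 bases in PDE3A. Of all 3235 protein-coding genes with an annotated 3′ untranslated region under 100 bases, 7.67% had a mean of at least 1 FPKM, compared to 22.4% of the 17406 other genes. PRKAR2A belongs to the first class, and PDE3A and GPR12 to the second. Whether the models bear on the low levels of PRKAR2A, PDE3A and GPR12 was not tested.

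GPR3 and GPR12 stand at the top of the pathway. GPR3 lies on chromosome 6 from 84610107 to 84613202 on the plus strand and has 2 exons. Its level was 0.504 and 0.116 FPKM in control, 0 and 0.158 FPKM in heat-stressed and 0.152 and 1.45 FPKM in NMN-supplemented oocytes. The groups overlapped in every comparison, and a single NMN-supplemented sample was far above the other one of its group. With a lower minimum mean of 0.1 FPKM, under which 8 of the 10 genes were tested among 11651 genes, GPR3 was not called in heat-stressed against control oocytes (log2 fold change −0.27, SE 0.38, adjusted P = 0.759, limma). It was not called in NMN-supplemented against heat-stressed oocytes either (0.64, adjusted P = 0.587, limma). The 95% interval of that difference ran from −0.34 to 1.63, so a difference in either direction was compatible with this spread. GPR12, on chromosome 11 from 4426797 to 4427953 on the minus strand, was listed at 0 in all samples, as was GPR6, another receptor of the same kind.

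GNAS carries the signal from the receptors to the cyclases. It lies on chromosome 17 from 58985580 to 59053022 on the plus strand, and its 24 annotated transcripts share 1 value in the table. Its level was 0.360 and 0.440 FPKM in control, 0.308 and 0.290 FPKM in heat-stressed and 0.230 and 0.264 FPKM in NMN-supplemented oocytes. The samples held the full order control, heat-stressed, NMN-supplemented from high to low without overlap, as did 6.08% of the 11651 genes of the lower minimum, and the mean in NMN-supplemented oocytes was 0.618 times the control mean. None of the 3 comparisons passed the test at the lower minimum, where the largest difference, NMN-supplemented against control, reached −0.17 on the log2 scale (SE 0.070, adjusted P = 0.207, limma). A long non-coding gene on the opposite strand, LOC110257458, overlaps GNAS and was at 0.0758 to 0.182 FPKM. How strand was used in the quantification was not given in the sources used here, so reads from such a pair cannot be told apart. GNAL, the other stimulatory alpha subunit, was at 0.319 and 0.228 FPKM in control, 0.106 and 0.0971 FPKM in heat-stressed and 0.0382 and 0.165 FPKM in NMN-supplemented oocytes. Both control samples of GNAL were above all 4 heated samples. At the lower minimum GNAL fell in heat-stressed (log2 fold change −0.21, SE 0.079, adjusted P = 0.307, limma) and in NMN-supplemented oocytes against control (−0.21, SE 0.079, adjusted P = 0.170, limma), where 8.99 and 14.5% of the genes were called as lower.

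The 2 adenylyl cyclases make cAMP from ATP. ADCY3, on chromosome 3 from 113875005 to 113969053 on the plus strand, was at 1.26 and 0.858 FPKM in control, 0.933 and 1.103 FPKM in heat-stressed and 1.18 and 1.16 FPKM in NMN-supplemented oocytes. The control samples spanned the range of all others. The log2 fold change was −0.023 in heat-stressed against control oocytes (95% interval −0.39 to 0.34, adjusted P = 0.929, limma), and its direction turned when control sample 1 (0.12) or heat-stressed sample 1 (0.037) was left out. NMN-supplemented oocytes differed from heat-stressed ones by 0.11 (−0.25 to 0.47, adjusted P = 0.718, limma) and from control ones by 0.085 (−0.28 to 0.45, adjusted P = 0.688), and neither difference was called. The end of ADCY3 overlaps CENPO on the opposite strand, a centromere protein gene. CENPO was at 26.0 to 27.2 FPKM in control and heat-stressed samples and at 35.9 and 32.3 FPKM with NMN. PTRHD1, on the same strand, shares its deposited locus with ADCY3 and was at 5.24 to 7.81 FPKM. The level of ADCY3 is therefore uncertain.

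ADCY9 lies on the same chromosome from 38117211 to 38303600 on the plus strand. Its level was 0.525 and 0.508 FPKM in control, 0.450 and 0.365 FPKM in heat-stressed and 0.314 and 0.320 FPKM in NMN-supplemented oocytes. Every control sample was above every heat-stressed sample, and these were above both NMN-supplemented samples. The group means were 0.517 ± 0.0120, 0.408 ± 0.0597 and 0.317 ± 0.00413 FPKM (SD, n = 2). At the lower minimum ADCY9 fell in NMN-supplemented against control oocytes (log2 fold change −0.20, SE 0.076, adjusted P = 0.167, limma), as did 14.5% of the genes tested there. The steps from control to heat-stressed (−0.11) and from heat-stressed to NMN-supplemented oocytes (−0.095) were not called. With no minimum it was not called in any comparison.

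A ratio within a sample does not depend on how that sample was scaled. The ratio of ADCY3 to ADCY9 was 2.40 and 1.69 in the controls. It was 2.08 and 3.02 after heat stress, and 3.76 and 3.63 with NMN. Both NMN-supplemented samples were above the other 4. The overlap of ADCY3 with CENPO, which was also highest with NMN, makes this ratio uncertain as well. An exact two-sided permutation test gave P = 0.333 for NMN-supplemented against either other group, which is the smallest P that 2 samples against 2 allow.

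PDE3A, which removes cAMP, lies on chromosome 5 from 52413503 to 52737771 on the minus strand, in 17 exons. It was at 0.0968 and 0.0881 FPKM in control, 0.153 and 0.148 FPKM in heat-stressed and 0.110 and 0.110 FPKM in NMN-supplemented oocytes. The heat-stressed samples were highest, the NMN-supplemented ones lay between, and no groups overlapped. At the lower minimum, 23.4% of genes were higher without overlap in heat-stressed than in control oocytes, 20.8% were lower in NMN-supplemented than in heat-stressed oocytes, and 29.5% were higher in NMN-supplemented than in control oocytes. The mean of PDE3A was 1.63 times the control mean in heat-stressed oocytes, and that of NMN-supplemented oocytes was 0.730 times the heat-stressed mean. On the log2(FPKM + 1) scale at the lower minimum these differences were 0.074 (SE 0.046, adjusted P = 0.496) and −0.052 (SE 0.046, adjusted P = 0.690, limma), neither of which was called. The ratio of GPR3 to PDE3A was 5.21 and 1.32 in the controls, 0 and 1.07 after heat stress, and 1.38 and 13.2 with NMN, and the groups overlapped.

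The 3 tested PKA genes, PRKAR1A, PRKACA and PRKACB, held 1 common order. They were each lowest in control, higher in heat-stressed and highest in NMN-supplemented oocytes, with no overlap between any groups, and all 3 rose in NMN-supplemented against control oocytes, as did 25.6% of all tested genes. This full order in the rising direction was held by 742 of the 4713 tested genes, 15.7%, and the falling one by 334, 7.09%. At the lower minimum, 998 of 11651 genes, 8.57%, held the rising order and 708, 6.08%, the falling one, and among the 8 genes tested there PRKAR1A, PRKACA and PRKACB held the first and ADCY9 and GNAS the second. PRKACA and PRKACB had control means below 1 FPKM and passed the minimum through the heated groups, so the number called among the 4 genes is a description of these genes and supports nothing further.

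PRKAR1A lies on chromosome 12 from 11662344 to 11681490 on the minus strand, in 11 exons. Its level was 8.36 and 7.26 FPKM in control, 10.02 and 9.91 FPKM in heat-stressed and 11.3 and 11.7 FPKM in NMN-supplemented oocytes. The heat-stressed samples were nearly equal, and every group was clear of the others. The means were 7.81 ± 0.779, 9.97 ± 0.0810 and 11.5 ± 0.256 FPKM (SD, n = 2). PRKAR1A rose in heat-stressed against control oocytes (log2 fold change 0.32, SE 0.11, 95% interval 0.033 to 0.60), but not after adjustment (adjusted P = 0.195, limma). In NMN-supplemented against control oocytes it rose by 0.51 (SE 0.11, 0.22 to 0.79), a 1.42-fold change on this scale with adjusted P = 0.0367 (limma). Between heat-stressed and NMN-supplemented oocytes the difference of 0.19 (−0.099 to 0.47) was not called (adjusted P = 0.448, limma). FAM20A overlaps the gene on the opposite strand and did not exceed 0.0250 FPKM.

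PRKACA, the alpha catalytic subunit, lies on chromosome 2 from 65074876 to 65095564 on the plus strand. It was at 0.863 and 0.983 FPKM in control, 1.15 and 1.30 FPKM in heat-stressed and 1.46 and 1.51 FPKM in NMN-supplemented oocytes. The group ranges did not overlap and ran from control through heat-stressed to NMN-supplemented samples. The means were 0.923 ± 0.0850, 1.23 ± 0.111 and 1.48 ± 0.0359 FPKM (SD, n = 2), and the NMN-supplemented mean was 1.61 times the control mean. PRKACA rose in NMN-supplemented against control oocytes (log2 fold change 0.37, SE 0.12, 95% interval 0.072 to 0.67, adjusted P = 0.0759, limma). It was not called in heat-stressed against control oocytes (0.21, adjusted P = 0.335, limma) or in NMN-supplemented against heat-stressed oocytes (0.16, adjusted P = 0.514, limma).

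PRKACB, the beta catalytic subunit, lies on chromosome 6 from 129520397 to 129636207 on the minus strand and has 9 annotated transcripts. It was at 0.998 and 0.8999 FPKM in control, 1.02 and 1.51 FPKM in heat-stressed and 1.60 and 1.74 FPKM in NMN-supplemented oocytes. The lower heat-stressed sample lay just above the controls and the higher one just below the NMN-supplemented samples. The means were 0.949 ± 0.0696, 1.27 ± 0.349 and 1.67 ± 0.103 FPKM (SD, n = 2), and the NMN-supplemented mean was 1.76 times the control mean. PRKACB rose in NMN-supplemented against control oocytes (log2 fold change 0.45, SE 0.15, 95% interval 0.082 to 0.83, adjusted P = 0.0789, limma). The heat-stressed samples differed from control ones by 0.21 (adjusted P = 0.432) and from NMN-supplemented ones by 0.25 (adjusted P = 0.447, limma), and neither difference was called.

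**Figure D2:**
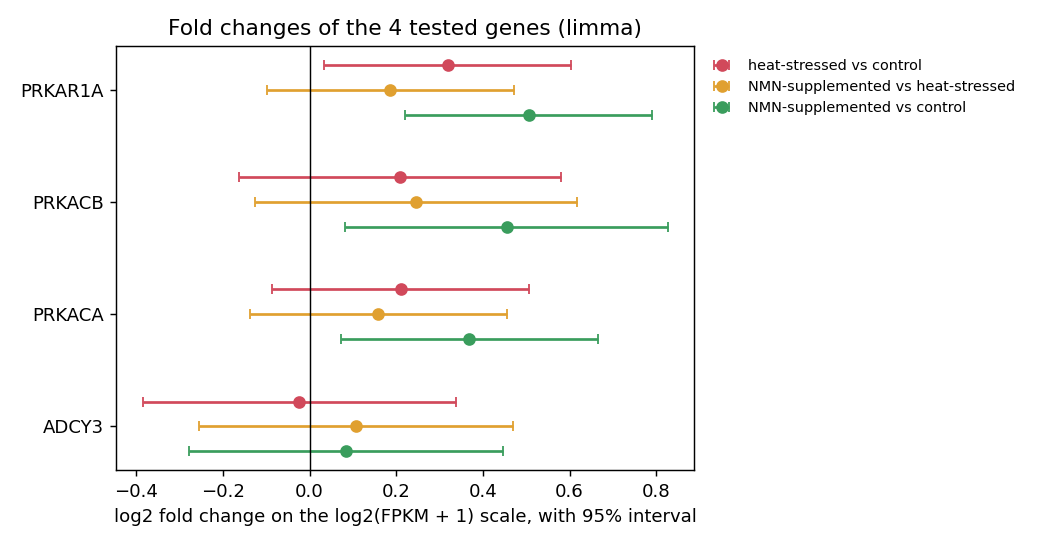
Log2 fold changes on the log2(FPKM + 1) scale of the 4 tested genes in the 3 comparisons, with points for the fitted value and bars for its 95% interval. For PRKAR1A the interval lies above 0 in heat-stressed against control (0.033 to 0.60) and NMN-supplemented against control oocytes (0.22 to 0.79), for PRKACA and PRKACB in the latter only, and for ADCY3 every interval spans 0.

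Against the table as a whole, the numbers were as follows. In heat-stressed against control oocytes 1 of the 4 tested genes was called, against 22.8% of all tested genes (12.7% called as higher and 10.1% as lower), and none of the 4 passed after adjustment, as was the case for every other tested gene. In NMN-supplemented against heat-stressed oocytes limma called 0 of the 4 genes at either threshold, against 13.6% of all tested genes at an unadjusted P under 0.05 (7.15% higher and 6.45% lower). In NMN-supplemented against control oocytes 3 of the 4 were called, all higher, against 41.3% of all tested genes (25.6% called as higher and 15.7% as lower), and 1 of them (PRKAR1A) passed after adjustment, against 21.5%. That pass of PRKAR1A held under 4 of 17 alternatives (a pseudocount of 0.1 FPKM, a minimum of 5 FPKM, the same median FPKM and no variance trend) and under 0 of the 6 that left out 1 sample, with adjusted P from 0.0249 to 0.579 (limma). Of all tested genes 1015 passed after adjustment in this comparison, and 0 without control sample 2, 1 without either NMN-supplemented sample and 373 without control sample 1. Without overlap between groups and higher in the second were 3 of 4 genes from control to heat-stressed (31.6% of all tested genes), 4 of 4 from heat-stressed to NMN-supplemented (35.9%) and 3 of 4 from control to NMN-supplemented oocytes (43.5%). At the lower minimum limma called 1 of 8 genes (PRKAR1A), 0 of 8 and 4 of 8 (the 3 PKA genes higher, ADCY9 lower) in these comparisons, against 16%, 9.96% and 27.8% of the 11651 genes tested there. In the last of them 13.3% of those genes were called as higher and 14.5% as lower. The 3 comparisons share samples and are not independent of each other. Median log2 fold changes over all tested genes were 0.049, 0.078 and 0.11 in this order.

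The 3 genes kept the direction from control to NMN-supplemented oocytes under every alternative tried, but not always the call. When the samples were scaled to the same summed FPKM of genes that are not mitochondrially encoded, none was called (log2 fold changes 0.53 for PRKAR1A, 0.40 for PRKACA and 0.49 for PRKACB), and the log2 fold change of PRKAR1A between heat-stressed and control oocytes was −0.0092. That scaling takes in LOC100513953 of heat-stressed sample 1. It moved the median log2 fold change of all genes to −0.22 in heat-stressed against control oocytes. PRKACA and PRKACB were at 0.044 and 0.055 in that comparison. Without LOC100513953 in the sum, an alternative chosen after seeing the data, all 3 were called again in NMN-supplemented against control oocytes (0.52, 0.38 and 0.47), and PRKAR1A was not called in heat-stressed against control oocytes (0.28). PRKACA lost its call without control sample 1 (0.32), NMN-supplemented sample 1 (0.38) or NMN-supplemented sample 2 (0.35). PRKACB lost it without either control sample (0.49 and 0.42) or either NMN-supplemented sample (0.49 and 0.42), whereas the call of PRKAR1A in that comparison held when any single sample was left out (0.41 to 0.60). For heat-stressed against control oocytes, PRKAR1A stayed called without control sample 1 (0.41) and lost the call when any other single sample was left out (0.23 to 0.33).

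**Figure D3:**
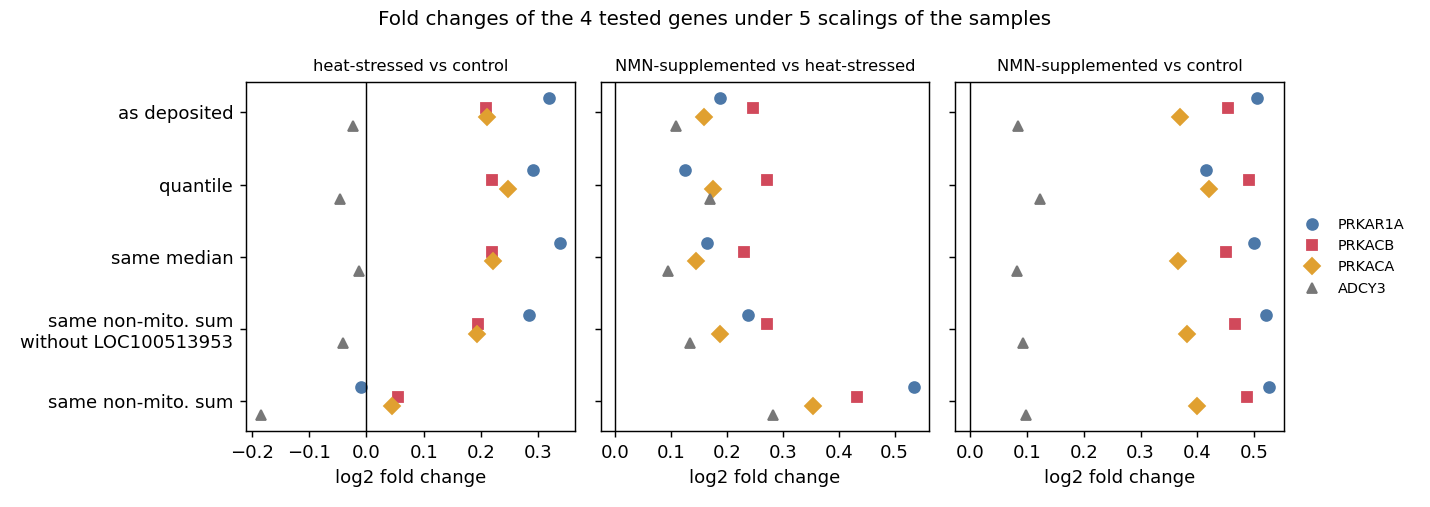
Log2 fold changes of PRKAR1A, PRKACB, PRKACA and ADCY3 under 5 scalings of the samples (rows), with 1 panel per comparison and a line at 0. The 3 PKA genes lie above 0 in all panels and rows except PRKAR1A at −0.0092 in heat-stressed against control oocytes under the scaling to the same non-mitochondrial sum, where ADCY3 is at its lowest.

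The share of mitochondrially encoded genes and the summed FPKM of the cumulus and granulosa cell markers, given above, were also highest in NMN-supplemented oocytes. The marker sum held the order of the PKA genes without overlap, as did GREM1 and KITLG within it. Their means were 2.10 and 2.13 FPKM in control, 3.07 and 2.89 FPKM after heat alone, and 3.56 and 3.39 FPKM with NMN. GATA4, SERPINE2 and FSHR did not hold it. In the same group order, their means were 2.01, 1.68 and 2.19 FPKM, 0.920, 0.902 and 0.782 FPKM, and 0.0855, 0.0983 and 0.0934 FPKM. The mitochondrial share held the order once LOC100513953 was left out of the total, with 61.7 to 66.4, 71.6 to 72.5 and 74.2 to 74.7%. With LOC100513953 in the total, heat-stressed sample 1 lay within the control range. The summed FPKM of the oocyte markers was lowest with NMN. Its members differed, with means given in the same group order. GDF9 (754, 504 and 394 FPKM) and MOS (888, 707 and 622 FPKM) were lowest with NMN. So were ZP3 (25.5, 13.3 and 10.2 FPKM), ZAR1 (20.5, 12.8 and 3.57 FPKM) and NPM2 (1.67, 1.11 and 0.266 FPKM). Their means with NMN were 0.399, 0.174 and 0.159 times the control means. BMP15 (1626, 1901 and 1785 FPKM) and BTG4 (49.1, 52.8 and 51.4 FPKM) were lowest in control. Whether these sums reflect cell content was not tested, nor was the part of the share and the sums in the levels of the PKA genes. LHCGR, another gene of the cumulus and granulosa cell list, did not exceed 0.0314 FPKM, and CYP19A1 of that list lay between 0.109 and 0.455 FPKM.

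Ratios among the PKA genes were also taken within samples. The ratio of PRKACA to PRKACB was 0.864 and 1.09 in the controls, 1.13 and 0.862 after heat stress, and 0.911 and 0.864 with NMN, with overlap between the groups. The ratio of PRKAR1A to the sum of both catalytic genes, chosen after the values were seen, was 4.49 and 3.86 in the controls, 4.63 and 3.52 after heat stress, and 3.70 and 3.59 with NMN. Heat-stressed samples spanned the others in this ratio, and both NMN-supplemented samples lay below both controls (exact permutation P = 0.333, the smallest possible). PRKAR2A was listed at 0 in both controls and 1 NMN-supplemented sample, with 0.00148 and 0.00383 FPKM in heat-stressed oocytes and 0.00550 FPKM in the other NMN-supplemented sample, so no fold change is given. The other type II regulatory subunit, PRKAR2B, was at 0.165 and 0.145 FPKM in control, 0.232 and 0.216 FPKM in heat-stressed and 0.345 and 0.232 FPKM in NMN-supplemented oocytes, and thus below PRKAR1A in every sample. PRKAR1B, the other type I regulatory subunit, went the other way, with 0.0700 and 0.0407, 0.0110 and 0.0339, and 0.00642 and 0.0135 FPKM in these groups. So did the PKA inhibitor PKIG, with 0.304 and 0.391, 0.2975 and 0.210, and 0.146 and 0.228 FPKM. At the lower minimum PKIG was not called in NMN-supplemented against control oocytes (−0.18, SE 0.080, adjusted P = 0.220, limma).

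For the 3 tested PKA genes, the 250 bases before the annotated start of each gene are shown. They were read from the RefSeq assembly Sscrofa11.1 on the strand of the gene. Capitals mark TGACG, the core of the cAMP response element bound by CREB, or the same letters on the other strand (CGTCA). The regions are chr2:65074626-65074875 for PRKACA (plus strand), chr6:129636208-129636457 for PRKACB (minus strand) and chr12:11681491-11681740 for PRKAR1A (minus strand).
PRKACA: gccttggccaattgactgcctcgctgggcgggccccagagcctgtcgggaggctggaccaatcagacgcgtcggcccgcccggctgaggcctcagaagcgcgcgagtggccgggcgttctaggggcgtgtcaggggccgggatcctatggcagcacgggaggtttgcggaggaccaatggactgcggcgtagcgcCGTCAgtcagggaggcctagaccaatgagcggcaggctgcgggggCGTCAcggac
PRKACB: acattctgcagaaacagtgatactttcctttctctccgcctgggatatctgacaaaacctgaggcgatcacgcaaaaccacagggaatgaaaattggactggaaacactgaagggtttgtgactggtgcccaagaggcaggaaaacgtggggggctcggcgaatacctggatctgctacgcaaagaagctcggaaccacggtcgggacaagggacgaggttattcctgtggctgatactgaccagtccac
PRKAR1A: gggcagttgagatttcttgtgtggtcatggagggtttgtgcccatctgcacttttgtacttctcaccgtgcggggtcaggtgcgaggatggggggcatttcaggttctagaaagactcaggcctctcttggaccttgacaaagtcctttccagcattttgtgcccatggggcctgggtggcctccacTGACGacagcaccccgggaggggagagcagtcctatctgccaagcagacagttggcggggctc
The core was present 2 times in PRKACA, starting 55 and 10 bases before the gene, and 1 time in PRKAR1A, starting 63 bases before it, and was not in these letters of PRKACB. It was present in 19.6% of the 19538 regions of the same length before protein-coding genes, both strands counted. The full element TGACGTCA, which holds the core on both strands, was in none of the 3 and in 1.7% of all regions. CCAAT was found 4 times in PRKACA and 1 time in PRKACB, against a share of 31.9% of regions with at least 1, and the GC box GGGCGG 2 times in PRKACA only, against 45.9%. The G and C content was 70.0%, 52.0% and 57.6% for PRKACA, PRKACB and PRKAR1A, with a median of 57.6% over all regions. No motif searched was present in all 3 regions. Among the regions of the other 7 genes, that of GPR3, which was not called, held the core 4 times and the full element 1 time, that of GPR12 held the core 1 time, and the other 5 held neither. These matches are a description of letters and not of bound sites, and only the outermost annotated start of each gene was used. Whether transcription of these genes differed between the groups was not tested.

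Around these 10 genes, the pathway was followed through 8 lists with 107 further genes in the table, from receptors to the CDK1 switch, and 25 of them were tested. In heat-stressed against control oocytes 2 rose and 0 fell, where 22.8% of all tested genes were called. In NMN-supplemented against heat-stressed oocytes 1 rose and 1 fell, where 13.6% of all tested genes were called. In NMN-supplemented against control oocytes 6 rose and 3 fell. After adjustment by limma, 0, 0 and 3 of the 25 passed in these comparisons (ADCY6, AKAP1 and WEE2), against 0, 0 and 21.5% of all tested genes. ADCY6 passed under 4 of 17 alternatives, AKAP1 under 8 of 16 and WEE2 under 11 of 17, and none of them without control sample 2 or either NMN-supplemented sample, with a minimum of 0.1 FPKM or none, or under the scaling to the same non-mitochondrial sum. With 9 of 25 called in the last comparison, the share lay below the 41.3% of all tested genes. Under the scaling to the same non-mitochondrial sum 2 of the 9 stayed called, AKAP1 and CDC25B. Without LOC100513953 in that sum, the alternative chosen after seeing the data, 9 of the 25 were called, 6 higher and 3 lower. At the lower minimum 58 of the further genes were tested and 13 called in that comparison, against 27.8% of all 11651, with AKAP9, GNB1, CDC25A and GNAL in addition to the 9. The median log2 fold changes of the 25 genes were 0.10, 0.12 and 0.030, against 0.049, 0.078 and 0.11 over all tested genes.

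Among the 10 adenylyl cyclases, only ADCY6 and ADCY3 were tested. ADCY6 was the cyclase with the highest level, with 9.98 and 9.10 FPKM in control, 10.7 and 11.14 FPKM in heat-stressed and 14.0 and 12.9 FPKM in NMN-supplemented oocytes. Its samples held the same full order without overlap as the PKA genes. ADCY6 rose in NMN-supplemented against control oocytes (log2 fold change 0.46, SE 0.11, adjusted P = 0.0424, limma). That call was lost without NMN-supplemented sample 1 (0.40) and under the scaling to the same non-mitochondrial sum (0.48). In each sample ADCY6 was 7.93 to 11.9 times the level of ADCY3, a ratio chosen after the values were seen.

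Of 16 cAMP phosphodiesterases, PDE8A and PDE1C were tested, and both were above PDE3A in every sample. The untranslated regions annotated for PDE3A are short, as given above, and their part in this difference was not tested. PDE8A, specific for cAMP, was at 1.22 and 1.24 FPKM in control, 1.56 and 1.34 FPKM in heat-stressed and 1.93 and 1.95 FPKM in NMN-supplemented oocytes. It rose in NMN-supplemented against control oocytes (0.40, SE 0.12, adjusted P = 0.0621, limma), a call lost without control sample 1 or either NMN-supplemented sample and under the scaling to the same non-mitochondrial sum. PDE1C was at 1.15 and 0.767 FPKM in control, 1.16 and 1.35 FPKM in heat-stressed and 1.42 and 1.20 FPKM in NMN-supplemented oocytes and was not called. PDE3B, the close relative of PDE3A, was at 0.128 to 0.188 FPKM, and its 2 controls lay below the 4 heated samples.

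**Figure D4:**
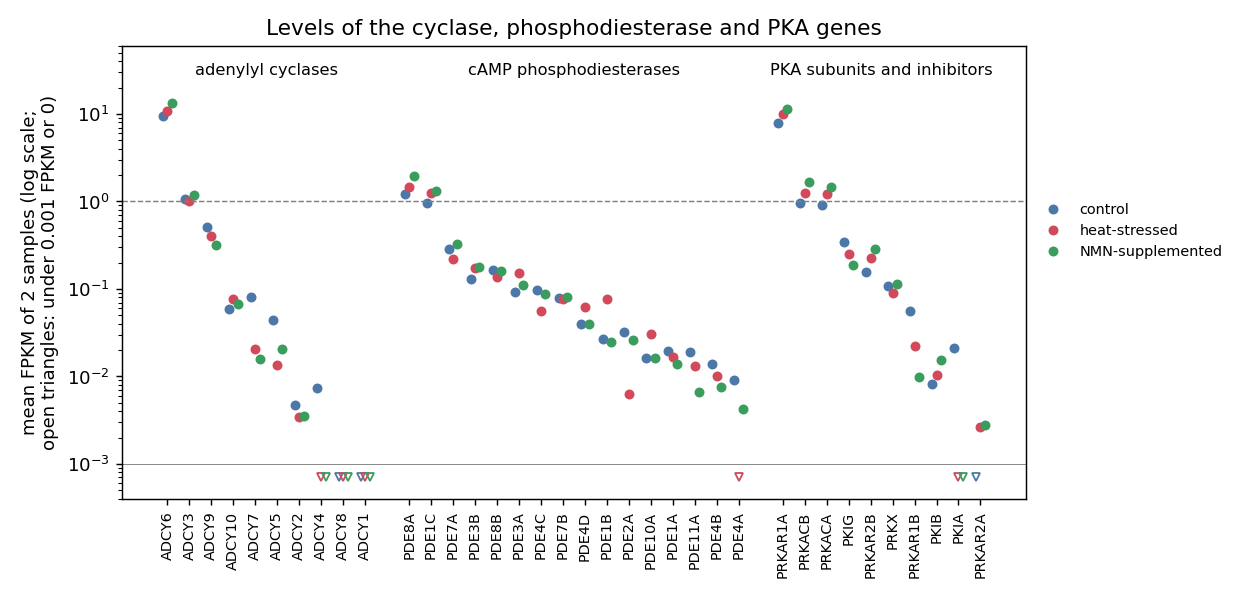
Mean FPKM (log scale) of 2 samples per group for the adenylyl cyclases, the cAMP phosphodiesterases and the PKA subunits and inhibitors, ordered by level within each family, with open triangles for means under 0.001 FPKM or at 0 and a dashed line at 1 FPKM. ADCY6, PDE8A and PRKAR1A lead their families, and PDE3A lies at 0.0924 to 0.150 FPKM.

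Of the receptor and G protein list, 11 of 26 genes were tested. GNB4, a G protein beta subunit, was at 2.46 and 1.61 FPKM in control, 3.36 and 3.09 FPKM in heat-stressed and 3.70 and 3.21 FPKM in NMN-supplemented oocytes. Both heated groups were above the controls and overlapped with each other. GNB4 rose in heat-stressed (log2 fold change 0.49, SE 0.17, adjusted P = 0.189, limma) and in NMN-supplemented oocytes against control (0.56, SE 0.17, adjusted P = 0.0652, limma). The first call was lost without control sample 2 or either heat-stressed sample. It was also lost with only the compared groups in the fit, and under the scaling to the same non-mitochondrial sum (0.23). The second was lost without control sample 2 or NMN-supplemented sample 1, and under that scaling. GNB1, another beta subunit, was at 1.75 and 1.49 FPKM in control, 1.86 and 1.78 FPKM in heat-stressed and 2.25 and 2.12 FPKM in NMN-supplemented oocytes. It was called as higher with NMN than in control oocytes at the lower minimum (0.28, adjusted P = 0.159, limma) but not at 1 FPKM.

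RGS2, a regulator of G protein signalling, was at 117 and 97.2 FPKM in control, 97.0 and 67.6 FPKM in heat-stressed and 74.2 and 68.2 FPKM in NMN-supplemented oocytes. The controls were highest, and the heat-stressed samples enclosed the NMN-supplemented ones. It fell in NMN-supplemented against control oocytes (−0.58, SE 0.20, adjusted P = 0.0894, limma). That call was lost without control sample 1 or either NMN-supplemented sample and under the scaling to the same non-mitochondrial sum.

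Anchoring proteins hold PKA at places in the cell through its regulatory subunits, and 4 of 21 were tested. AKAP1, which anchors PKA at the outer mitochondrial membrane, was at 3.98 and 2.84 FPKM in control, 2.21 and 2.64 FPKM in heat-stressed and 1.08 and 1.44 FPKM in NMN-supplemented oocytes. Its groups ran in falling order without overlap. AKAP1 fell in NMN-supplemented against control oocytes (−0.96, SE 0.18, adjusted P = 0.0272, limma), and this call held under all 16 alternatives tried, before adjustment. It also fell in NMN-supplemented against heat-stressed oocytes (−0.61, SE 0.18, adjusted P = 0.326, limma), though not without heat-stressed sample 2 or NMN-supplemented sample 1 or under the scaling to the same non-mitochondrial sum (−0.38). AKAP11 was at 8.64 and 5.12 FPKM in control, 7.53 and 9.65 FPKM in heat-stressed and 11.9 and 12.3 FPKM in NMN-supplemented oocytes. Both NMN-supplemented samples were above the other 4, and AKAP11 rose against control (0.77, SE 0.24, adjusted P = 0.0711, limma). That call was lost without control sample 2 or either NMN-supplemented sample and under the scaling to the same non-mitochondrial sum. AKAP9, below the minimum of 1 FPKM, was at 0.591 and 0.431 FPKM in control, 0.682 and 0.829 FPKM in heat-stressed and 1.09 and 0.990 FPKM in NMN-supplemented oocytes. Its groups ran in rising order without overlap, and at the lower minimum it rose in NMN-supplemented against control oocytes (0.43, SE 0.11, adjusted P = 0.0856, limma).

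At the end of the pathway stands the switch that PKA acts on, with 6 of 16 genes tested. WEE2, the oocyte kinase that puts the inhibitory phosphate on CDK1, was at 157 and 134 FPKM in control, 201 and 198 FPKM in heat-stressed and 251 and 249 FPKM in NMN-supplemented oocytes. No groups overlapped. WEE2 rose in heat-stressed against control (log2 fold change 0.45, SE 0.12, adjusted P = 0.140, limma), in NMN-supplemented against heat-stressed (0.33, SE 0.12, adjusted P = 0.354, limma) and in NMN-supplemented against control oocytes (0.78, SE 0.12, adjusted P = 0.0218, limma). The first and last calls were lost only under the scaling to the same non-mitochondrial sum (log2 fold changes 0.085 and 0.80), whereas the middle one was also lost when any 1 heat-stressed or NMN-supplemented sample was left out and with the replicate block.

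CDC25B, the phosphatase that removes that phosphate, was at 3.01 and 3.07 FPKM in control, 1.78 and 2.69 FPKM in heat-stressed and 0.755 and 1.73 FPKM in NMN-supplemented oocytes. Its groups ran in the order opposite to that of WEE2, without overlap. It fell in NMN-supplemented against control oocytes (−0.88, SE 0.25, adjusted P = 0.0592, limma), a call lost without either control sample or NMN-supplemented sample 1. CDC25A, named after its values were seen, was at 1.18 and 1.12 FPKM in control, 0.686 and 0.775 FPKM in heat-stressed and 0.367 and 0.532 FPKM in NMN-supplemented oocytes. Its mean was below the minimum of 1 FPKM. At the lower minimum CDC25A fell in heat-stressed (−0.31, SE 0.10, adjusted P = 0.273, limma) and in NMN-supplemented oocytes against control (−0.57, SE 0.10, adjusted P = 0.0574, limma). CDC25C was at 0.351 and 0.241 FPKM in control, 0.177 and 0.238 FPKM in heat-stressed and 0.286 and 0.253 FPKM in NMN-supplemented oocytes. Its control and NMN-supplemented samples overlapped, and it was not called in any comparison at the lower minimum. PKMYT1, another kinase of this switch, was at 0.602 and 1.06 FPKM in control, 0.293 and 0.604 FPKM in heat-stressed and 0.212 and 0.458 FPKM in NMN-supplemented oocytes. Its means ran in the order opposite to that of WEE2, and its heat-stressed samples overlapped with both other groups. At the lower minimum PKMYT1 was not called in NMN-supplemented against control oocytes (−0.45, SE 0.19, adjusted P = 0.207, limma).

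CCNB1, cyclin B1 and the partner of CDK1, was at 54.4 and 59.8 FPKM in control, 65.3 and 61.9 FPKM in heat-stressed and 80.4 and 68.7 FPKM in NMN-supplemented oocytes. It rose in NMN-supplemented against control oocytes (0.37, SE 0.13, adjusted P = 0.0845, limma). That call was lost without control sample 1 or NMN-supplemented sample 1, under quantile normalization and under the scaling to the same non-mitochondrial sum. CDK1 itself was at 2.71 and 2.39 FPKM in control, 2.03 and 2.99 FPKM in heat-stressed and 3.06 and 2.23 FPKM in NMN-supplemented oocytes, with overlap between all groups. CCNB2, cyclin B2, was at 9.13 and 13.6 FPKM in control, 7.07 and 9.51 FPKM in heat-stressed and 8.63 and 9.44 FPKM in NMN-supplemented oocytes. Its groups overlapped too, and it was not called in NMN-supplemented against control oocytes (−0.28, SE 0.22, adjusted P = 0.389, limma).

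**Figure D5:**
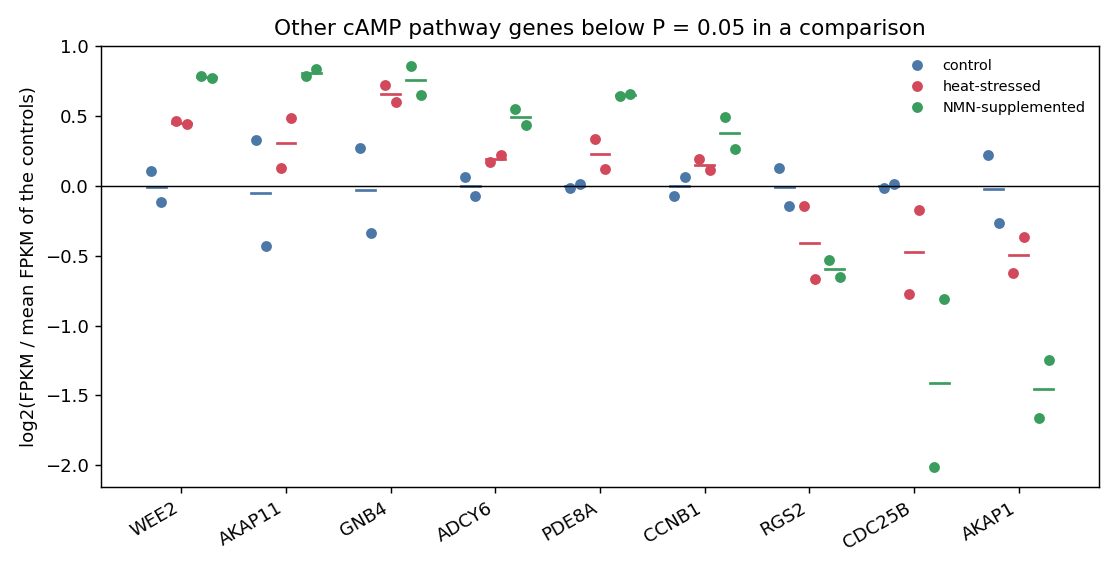
Level of the 9 further pathway genes called in at least 1 comparison, as log2 of FPKM over the mean of the controls, with 1 point per sample and a bar at the mean of each group. AKAP11, WEE2 and GNB4 stand highest with NMN, and AKAP1 (1.08 and 1.44 FPKM with NMN against 3.98 and 2.84 FPKM in control) and CDC25B fall.

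Genes through which the follicle acts on oocyte cAMP were mostly low. Of 12 genes of cGMP synthesis, cGMP breakdown and gap junctions in the table, only GJC1 was tested (3.95 to 4.86 FPKM), and it was not called. The granulosa cell ligand NPPC and the gap junction gene GJA4 were listed at 0 in every sample. None of the 6 genes for other cAMP effectors and transport was tested, and RAPGEF3, a cAMP-activated exchange factor, was listed at 0.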

How the data were processed

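RNA of 6 pools of porcine oocytes was sequenced, 2 per group, and samples were grouped by the treatment in their labels. The authors trimmed the reads with cutadapt, aligned them to susScr11 with tophat2 and, as the submitters' processing notes name it, quantified them with Cufflinks 2.2.1 and Cuffnorm. The values used are the FPKM the authors deposited for each of 29861 genes and 6 samples. As FPKM, these are normalized to transcript length and to mapped fragments. Any further scaling between samples, such as by Cuffnorm, was taken as deposited. The summed FPKM ranged from 163929 in control sample 2 to 290136 in heat-stressed sample 1. How far very abundant genes shifted the others in the deposited values was not tested. How strand was used was not given in the sources used here, and the low values showed no whole-read steps, so depth is unknown. The authors' fold changes, P-values and q-values in the same table were not used.

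FPKM were log2-transformed after adding 1. A single linear model with a term for each of the 3 groups was fitted with limma 3.58.1 (R 4.3.3; empirical Bayes with a variance trend, two-sided) to the 4713 genes with a mean of at least 1 FPKM, with Benjamini-Hochberg adjustment over all of them. The script was tested on simulated data. No samples held identical values. The genes, the pathway and marker lists and the tests were chosen with earlier results of these data known. All 10 genes are named, with every pathway gene at P under 0.05 in a comparison at the minimum of 1 FPKM; the part of the naming rule on genes most like GPR3 and PDE3A did not apply, since neither was tested. GPR6, GNAL, GNB1, AKAP9, PDE1C, PDE3B, PRKAR1B, PRKAR2B, PKIG, CDC25A, CDC25C, PKMYT1, CDK1, CCNB2, GJC1, NPPC, GJA4 and RAPGEF3 were named after their values were seen. Of the 109 further pathway genes listed, 107 were in the table. Regions before genes were read with pysam 0.24.0 from the RefSeq assembly Sscrofa11.1, whose coordinates match the table's loci. Tables were made with Python 3.11.15 and pandas 2.3.3, figures with matplotlib 3.10.9. The alternatives tried were pseudocounts, minimum levels, scalings, a replicate block, the compared groups alone, no variance trend and leaving out each sample.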

Additional observations from a re-analysis of the deposited data

How the results depend on the processing

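With 2 samples per group and FPKM without counts, small differences could not be detected at this spread, and a gene not called is not shown to be equal between groups. Across the alternatives, the calls that held in NMN-supplemented against control oocytes were those of AKAP1 (16 of 16 alternatives), PRKAR1A (16 of 17) and WEE2 (16 of 17). Unless stated, the cause of a change was not tested. In each list below the values are for heat-stressed against control, NMN-supplemented against heat-stressed and NMN-supplemented against control oocytes.

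Of the 4 tested genes, 1, 0 and 3 were called, and leaving out 1 sample gave 0 to 1, 0 and 1 to 3. In the first comparison the count was 0 with the replicate block, with only the compared groups, and under either scaling to the same non-mitochondrial sum. In the last it was 1 with a minimum of 5 FPKM, which leaves only PRKAR1A to test, and 0 under the scaling to the same non-mitochondrial sum with LOC100513953. Under that scaling 0 of these genes stood clear of control in heat-stressed oocytes, in place of 3. Leaving out 1 sample gave 3 to 4, 4 and 3 to 4 without overlap. It can only keep or add such genes, so these counts are no check. Of the further pathway genes 2, 2 and 9 were called. With a minimum of 0.1 FPKM the first and second counts were 4 and 4, with 5 FPKM all were 1, 1 and 5, with no minimum 7, 7 and 16, and under the same non-mitochondrial sum 0, 0 and 2. The first was 4 without LOC100513953 in the sum, 4 with the block and 1 with only the compared groups. The last was 9 without LOC100513953 in the sum. Leaving out 1 sample gave 2 to 6, 0 to 3 and 2 to 9.

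Of all tested genes 1074, 641 and 1948 were called, with 55.7, 52.6 and 62.0% of them higher. With a minimum of 0.1 FPKM the counts were 1865, 1161 and 3236, with 5 FPKM 468, 266 and 791, and with no minimum 2388, 1557 and 3700, as more or fewer genes entered. Under the same non-mitochondrial sum they were 562, 269 and 789, with 6.05, 67.7 and 35.4% higher and medians of −0.22, 0.35 and 0.13, with LOC100513953 taking 37.0% of that sum in heat-stressed sample 1. Without it the higher shares were 40.6, 49.4 and 59.8%, and under quantile normalization 55.2, 41.3 and 59.1%. Leaving out 1 sample gave 648 to 1015, 327 to 701 and 1233 to 1941.

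The same replicate numbers occur in each group, but same-numbered samples did not deviate together (correlations −0.032, 0.0081 and −0.014), so the numbers were not taken to pair the samples. With the replicate block 937, 527 and 1815 genes were called, and 0, 0 and 3 of the 4 genes.

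Direction turned for 8 genes. From control to heat-stressed these were ADCY3 without control 1 or heat-stressed 1 (−0.16 to 0.12 when 1 sample was left out), and, under the same non-mitochondrial sum, PRKAR1A (−0.0092), ADCY6 (−0.15), PDE8A (−0.072), CCNB1 (−0.21) and AKAP11 (−0.0035), the last also without control 2 (−0.017 to 0.64 when 1 sample was left out). From heat-stressed to NMN-supplemented oocytes GNB4 turned without NMN-supplemented 1 (−0.0065 to 0.15 when 1 sample was left out) and RGS2 under that sum (0.20) or without heat-stressed 1 (−0.44 to 0.071). ADCY3 turned from control to NMN-supplemented oocytes without control 2 (−0.056 to 0.23 when 1 sample was left out).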
